A study of Mus musculus with 75 samples.

Results

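A total of 3182 regions of open chromatin were transient in passaged mouse skin fibroblasts: they were listed as peaks in the middle of the culture series, at passage 3 or 5, and in no sample at its start or its end. To find them, the overlapping ATAC-seq peaks of 13 samples on chromosomes 1 to 19 and X were merged into 306843 union regions, and a region was kept when it held a peak in 0 of 4 P1 samples, in 0 of 3 P7 samples and in 2 or more of 3 samples at P3 or at P5. The transient regions were 1.04% of the union regions. Of these, 491 reached 2 samples at P3 alone, 2519 at P5 alone and 172 at both passages. The peak lists themselves made this choice, so presence and peak strength are given below as a description, whereas position, base composition and RNA were not part of the rule.

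The cells were untreated primary skin fibroblasts of C57BL/6 mice, 2 months old per the study's methods, cultured from passage 1 (P1) through P3 and P5 to P7, at which the study scored them as replicatively senescent. All passages share the genotype, the strain and the absence of treatment, and differ in the number of passages. ATAC-seq was done on 4 P1 samples and on 3 samples each at P3, P5 and P7, and RNA-seq on 4 libraries of each passage with 13430229 to 15725823 counted reads. Nothing in the labels says whether replicates were separate cultures or animals, so p-values below measure the spread between these libraries, which may be technical. The ATAC files list peaks, not reads, so their depth is unknown, and a sample without a peak is one in which the caller reported none, which is not a measurement of closed chromatin.

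ATAC-seq cuts DNA where it is not wrapped up by nucleosomes, so a peak marks a promoter, enhancer or other stretch that proteins occupy. Fibroblast enhancers are known for sites of AP-1 (Jun, Fos and Atf dimers that answer growth and stress signals), TEAD factors (the DNA-binding partners of the Hippo pathway coactivators Yap1 and Wwtr1) and RUNX factors, which bind DNA with the partner Cbfb. EBF factors mark mesenchymal and adipose precursors as well as B cells, and CTCF binds insulators and chromatin loop anchors.

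The sequences below show transient regions of each kind. Each is 201 bases around the peak's summit, on the + strand of GRCm38/mm10, read from the RefSeq genome GRCm38.p6, with matches to RUNX (TGTGGT), TEAD (GGAATG) or AP-1 (TGANTCA) in capitals, on either strand, so that ACCACA is a RUNX match and CATTCC a TEAD match. The first lies in the promoter of Gnai3, 850 bases upstream of its start (chr3:108146902-108147102), and was a region of P3 alone. The next, also of P3 alone, lies in an intron of Cntn2 (chr1:132538764-132538964). Those of Tenm4 (intron, chr7:96227743-96227943), Runx1 (intronic, 37435 bases upstream of the linked start, chr16:92734664-92734864) and Vgll3 (intron, chr16:65838435-65838635) were of P5 alone, as was an intergenic region on chromosome 4, 98786 bases from any annotated start, with Spaca1 as the nearest counted gene (chr4:34222015-34222215). The region in an intron of Plce1, with Noc3l as the counted gene of the nearest start, 46659 bases away (chr19:38772478-38772678), and the intergenic region 17859 bases from any annotated start, with Tbl1xr1 the nearest counted gene (chr3:21818530-21818730) held peaks in all 6 samples of P3 and P5.
Gnai3 promoter, P3 alone: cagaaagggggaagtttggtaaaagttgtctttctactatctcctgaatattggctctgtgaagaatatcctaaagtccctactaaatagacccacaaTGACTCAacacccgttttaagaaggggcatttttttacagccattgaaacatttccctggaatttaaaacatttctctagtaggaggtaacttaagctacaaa
Cntn2 intron, P3 alone: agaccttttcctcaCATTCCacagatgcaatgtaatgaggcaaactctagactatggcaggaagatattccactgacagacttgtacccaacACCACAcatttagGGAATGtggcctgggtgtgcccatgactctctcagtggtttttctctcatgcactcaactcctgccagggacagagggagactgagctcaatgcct
Spaca1 side, P5 alone: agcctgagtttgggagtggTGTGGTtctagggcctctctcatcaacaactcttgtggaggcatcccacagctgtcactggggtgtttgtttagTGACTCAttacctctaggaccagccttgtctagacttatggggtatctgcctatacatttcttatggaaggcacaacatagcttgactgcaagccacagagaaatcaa
Tenm4 intron, P5 alone: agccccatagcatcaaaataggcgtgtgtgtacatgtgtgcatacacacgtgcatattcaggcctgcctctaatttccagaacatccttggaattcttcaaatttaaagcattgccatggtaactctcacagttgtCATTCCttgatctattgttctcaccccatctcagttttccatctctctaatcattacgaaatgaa
Runx1 upstream, P5 alone: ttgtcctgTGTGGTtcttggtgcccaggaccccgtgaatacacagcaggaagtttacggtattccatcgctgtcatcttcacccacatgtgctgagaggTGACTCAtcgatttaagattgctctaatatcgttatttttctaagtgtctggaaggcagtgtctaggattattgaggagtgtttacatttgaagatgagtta
Vgll3 intron, P5 alone: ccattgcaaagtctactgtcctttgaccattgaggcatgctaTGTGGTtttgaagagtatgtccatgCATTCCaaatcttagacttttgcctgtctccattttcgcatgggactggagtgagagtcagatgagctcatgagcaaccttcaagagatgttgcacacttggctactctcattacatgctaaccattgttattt
Plce1 intron, both: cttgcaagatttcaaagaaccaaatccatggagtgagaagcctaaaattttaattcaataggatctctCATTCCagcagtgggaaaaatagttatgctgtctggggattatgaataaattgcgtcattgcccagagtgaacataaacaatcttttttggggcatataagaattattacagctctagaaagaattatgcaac
Tbl1xr1 side, both: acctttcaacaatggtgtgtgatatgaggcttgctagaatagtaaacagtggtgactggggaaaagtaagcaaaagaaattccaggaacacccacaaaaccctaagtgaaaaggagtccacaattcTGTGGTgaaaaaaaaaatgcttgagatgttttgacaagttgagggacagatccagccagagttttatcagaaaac

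P5 held most of the transient regions. They had a peak in 2063, 2444 and 1477 regions in P5 replicates 1 to 3 and in 633, 619 and 658 regions in P3 replicates 1 to 3. The commonest pattern was a peak in 2 of 3 P5 samples and none at P3, in 1724 regions (54.2%), followed by 2 P5 samples and 1 P3 sample in 410 regions. Peaks in all 6 samples of P3 and P5 were found in 19 regions, in all 3 P5 samples and no P3 sample in 301, and in all 3 P3 samples and no P5 sample in 29. The lengths of the lists moved with this split: P3 lists held 142372 to 155668 peaks and P5 lists 182390 to 207956, while P1 lists held 168970 to 186552 and P7 lists 200363 to 231548.

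When the 142372 strongest peaks of each sample were taken in place of the full lists, the order of the passages turned: 2520 regions were then transient at P3 alone, 1400 at P5 alone and 509 at both. Only 499 of the 3182 regions were transient in both versions. Of the 3182, 1689 held no peak among the strongest of any sample. Conversely, of the 4429 regions chosen from lists of equal length, 2160 lay in a region with a P1 peak in the full lists and 3623 in one with a P7 peak. The larger number of regions at P5 than at P3 therefore depends on list length. It was also seen with only peaks of −log10 q of at least 2 (277 regions of P3 alone and 2464 of P5 alone), a filter that does not set list lengths equal. Read depth, which the files do not give, cannot be told apart from passage here.

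**Figure D1:**
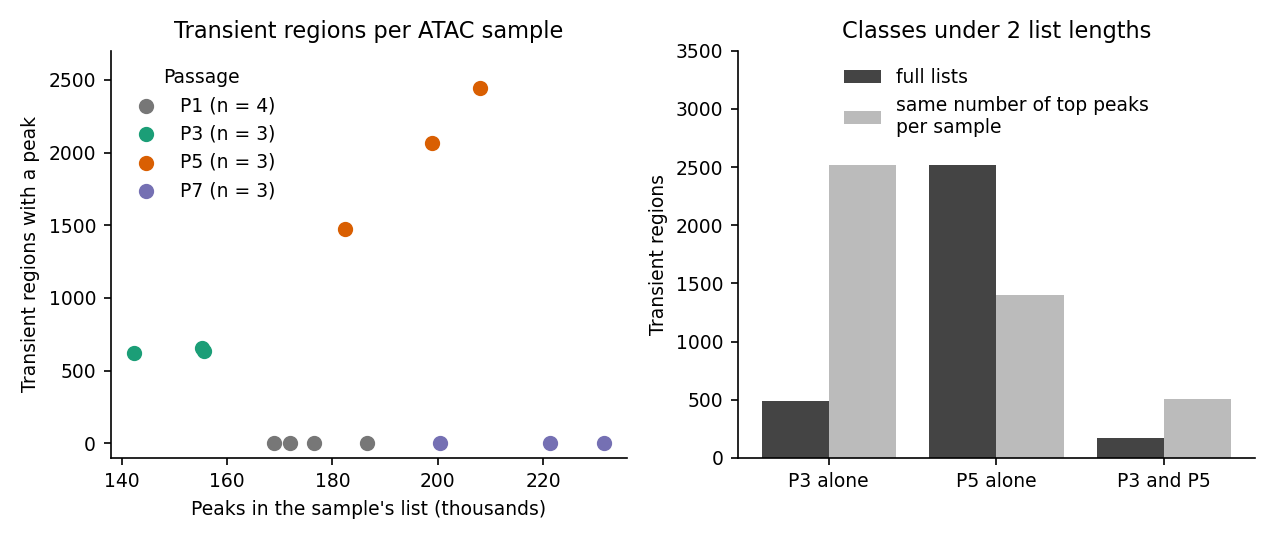
Left, the number of transient regions with a peak in each ATAC sample (y axis) against the number of peaks in that sample's list (x axis, in units of 1000 peaks), coloured by passage; P1 and P7 samples are at 0 by the rule, P3 samples at 619 to 658 and P5 samples at 1477 to 2444. Right, the regions of P3 alone, P5 alone and both passages from the full lists (491, 2519 and 172) and from the same number of top peaks in each sample (2520, 1400 and 509).

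Transient peaks were weak. Over the peaks of the transient regions the median −log10 p given by the peak caller was 5.65 (interquartile range 4.04 to 8.05), against 20.4 over all union regions, and the median fold over background was 2.75 against 5.15. Ranked within their own sample, they lay at a median percentile of 12.97. Regions that opened by P5 and stayed open (0 of 4 P1 samples and 2 or more of 3 at P5 and at P7; 15278 regions) had a median −log10 p of 9.45, a fold of 3.58 and a percentile of 27.5. Those of P3 alone were the weakest transient peaks, with a median −log10 p of 4.45, and those of P5 alone and of both passages had 6.00 and 5.86. Transient regions were also narrow, with a median width of 307 bases against 423 over all regions.

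The threshold lay in a continuum of such weak peaks. The 509 regions with 3 of 3 samples had a median −log10 p of 6.45 and the 2673 just inside, with 2 of 3, one of 5.49. Just outside, 20310 regions had a peak in 1 of 3 samples at most at P3 and P5 and none at P1 or P7, with a median of 4.27. A further 3740 missed by a single P7 sample (median 6.49) and 1256 by a single P1 sample (median 6.00).

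The strongest transient regions had higher peaks. The single highest −log10 p, 69.5, was in P3 replicate 2 at a region on the X chromosome (chrX:9019527-9019860), 13801 bases upstream of Fthl17e, which had 10.9 in P3 replicate 1 and no peak elsewhere. Among regions with a peak in every sample of their passages, the one on the Spaca1 side had −log10 p values of 30.7, 31.6 and 11.0 in P5 replicates 1 to 3 and 12.8 in P3 replicate 3. A region in an exon of Nfkb2, an NF-κB subunit, had 23.9, 20.4 and 16.4 at P5 and no peak at P3 (chr19:46309117-46309387, GRCm38/mm10). An intergenic region 303059 bases upstream of Sema3a had 13.1, 33.9 and 12.9 at P5, held 3 RUNX matches and was 93.5% masked repeat. All 3 P5 samples listed the Spaca1, Nfkb2 and Sema3a regions, and the highest value was in P5 replicate 2 in the first and the last of these.

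At P3, the Gnai3 promoter region had −log10 p values of 14.2, 16.9 and 10.9 in replicates 1 to 3, and a peak of 12.5 in P5 replicate 2. Gnai3 encodes an inhibitory G protein α subunit. The promoter of Lpl, the lipase that splits triglycerides in lipoproteins, held a region 820 bases upstream of the start with 6.29, 8.82 and 15.9 at P3 and no peak at P5. An intron of H3f3a, which encodes histone H3.3, had 7.98, 8.17 and 13.4 at P3. Of the regions of both passages, the Plce1 intron had 5.52, 6.55 and 9.70 at P3 and 11.7, 14.1 and 13.7 at P5, and the Tbl1xr1 region 6.42, 8.15 and 8.02 at P3 and 11.4, 14.6 and 10.8 at P5. An intron of Adam9, a membrane metalloproteinase, had 4.60, 21.4 and 5.06 at P3 and 16.5, 17.3 and 9.37 at P5. In the Plce1 and Tbl1xr1 regions each P5 sample was above each P3 sample, whereas in the Adam9 intron P3 replicate 2 had the highest value of all 6.

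Samples that the choice had not used repeated it only in part. For each sample in turn, the rule was applied to the other 12 (with both remaining samples needed at P3 or at P5), and presence was then read in the sample left out. Of regions chosen for both other P3 samples, 32.8%, 28.1% and 36.1% held a peak in P3 replicates 1, 2 and 3. At P5 the shares were 38.7%, 57.5% and 26.2% for replicates 1 to 3. Over all union regions with a peak in both other samples of the passage, the shares were 89.7% to 94.6% at P3 and 86.4% to 97.2% at P5, where all union regions had the higher peak strength given above. Absence at P1 was repeated in 90.7% to 91.9% of the chosen regions (85.0% to 91.5% over all regions lacking a peak in the other P1 samples), and absence at P7 in 68.9% to 75.05% (73.6% to 82.1%). Leaving out P5 replicate 1 or P5 replicate 2 also cut the number of regions chosen the most, to 1714 and 1358.

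**Figure D2:**
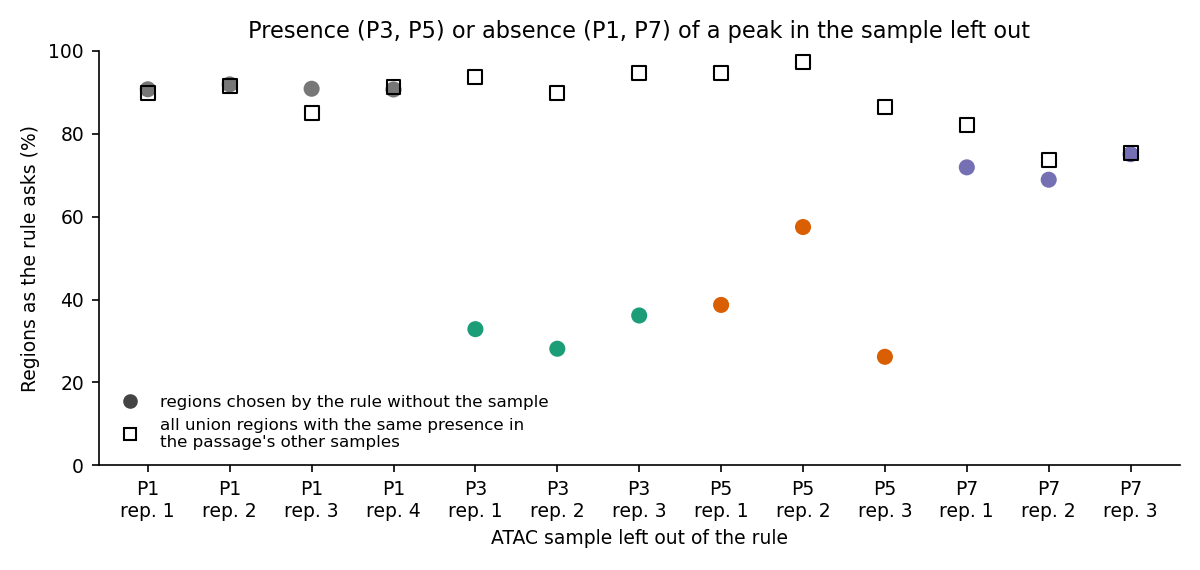
Share of regions (y axis, %) that held a peak at P3 or P5, or lacked one at P1 or P7, in the ATAC sample left out of the choice (x axis); filled circles are regions chosen by the rule without that sample, open squares all union regions with the same presence in the passage's other samples. The P3 and P5 circles lie between 26.2% and 57.5% and the squares between 86.4% and 97.2%.

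Transient regions lay mostly away from promoters. Introns held 1554 (48.8%), intergenic DNA 1454 (45.7%), exons 91 (2.86%) and promoters, taken as 1000 bases on either side of a transcript start, 83 (2.61%), whereas 6.40% of all union regions were at promoters. The classes differed in this share: 33 of the 491 regions of P3 alone (6.72%) were at promoters, against 47 of 2519 of P5 alone (1.87%) and 3 of 172 of both. Regions that opened by P5 and stayed had 1.35% at promoters. The median distance to a start was 20744 bases for P3 alone and 38160 for P5 alone, against 30970 over all regions. Median GC content was 45.8% in the transient regions and 46.8% over all. A mean of 15.1% of their bases were masked as repeat, against 15.02% over all regions, and 19.6% in those of P3 alone.

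They were spread over the genome and often next to lasting peaks. By chromosome, transient regions were 0.799% (chromosome 9) to 1.21% (chromosome 4) of the union regions, and 94 lay on the X chromosome. The median gap to the nearest region with a P1 or P7 peak was 1393 bases, and 810 regions (25.5%) were within 500 bases of one. The median gap to a region open in all 13 samples was 4697 bases. Transient regions seldom lay together: the median gap to another was 170111 bases, and 171 had another within 10 kb.

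RUNX and TEAD matches were more frequent in transient regions than over all regions, and AP-1 matches less frequent. Within 100 bases of the summit, 33.2% held a RUNX match (1056 regions, 95% Wilson interval 31.6% to 34.8%) against 23.2% of all union regions. A TEAD match was present in 27.3% (25.8% to 28.9%) against 19.6%, and an AP-1 match in 15.2% (14.0% to 16.5%) against 28.2%. The palindromic EBF motif was found in 2.58% (82 regions, 2.08% to 3.19%) against 1.10%, and the CTCF motif in 0.817% against 3.25%. The intervals cover counting error only. Regions that opened by P5 and stayed held a RUNX match in 26.3%, a TEAD match in 27.5%, an AP-1 match in 23.2% and an EBF match in 0.497%. Those that opened by P3 and stayed held them in 27.6%, 30.9%, 23.2% and 0.575%. The CTCF motif was in 0.615% of the regions that opened by P5 and stayed and in 0.465% of those that opened by P3. A low CTCF share was thus not particular to the transient regions. The TEAD shares of these lasting regions were thus near or above that of the transient regions. A raised TEAD share was therefore not particular to the transient regions. The RUNX and EBF shares of the lasting regions were lower than those of all transient regions. For RUNX this did not hold in the regions of P3 alone. Their RUNX share of 26.9% (23.2% to 31.0%) lay between the 27.6% and 26.3% of the lasting regions.

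The other motifs searched differed by fewer percentage points than RUNX, TEAD and AP-1, although the rare ETS and SP/KLF matches differed by more than RUNX or TEAD in proportion. These were NF-Y (CCAAT, 24.1% against 24.8%), the E-boxes CAGATG (18.1% against 21.6%) and CAGCTG (12.8% against 14.8%), GATA factors (AGATAA, 10.3% against 8.73%), C/EBP (9.65% against 10.8%), homeobox (TAATTA, 4.37% against 4.44%), forkhead (TGTTTAC, 3.24% against 2.90%), SP/KLF (CCCGCCC, 2.33% against 3.95%), E2F (TTCCCGC, 0.691% against 0.854%) and ETS (CCGGAAG, 0.597% against 1.55%). Regions that opened by P5 and stayed held an ETS match in 0.648% and an SP/KLF match in 1.15%. In those that opened by P3 and stayed the shares were 0.438% and 1.34%, so these low shares were not particular to the transient regions. The NFI and p53 motifs, searched in their full-length form, were in 0 transient regions and in 0.0323% and 0.0127% of all regions. A window could hold several motifs, both strands were read, and overlapping matches were all counted.

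The 3 classes differed in their matches. RUNX matches were in 26.9% of regions of P3 alone, 34.1% of P5 alone and 38.4% of both passages, and TEAD matches in 22.4%, 27.7% and 35.5%. AP-1 matches were in 18.9%, 14.1% and 19.8%. A RUNX and a TEAD match together were found in 256 transient regions (8.05%) against 4.57% of all regions, and in 24 of the 172 regions of both passages (14.0%). The Vgll3 and Cntn2 introns printed above are 2 of these regions. None of RUNX, TEAD, AP-1 and EBF was matched in 1209 regions (38.0%), among them the Lpl promoter and the Adam9 intron.

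The RUNX, TEAD and AP-1 differences were seen in each sample. By the rule each region held peaks in 2 or more samples of a passage, so these sets overlap and are not separate tests. The sets of the P3 samples also hold regions that reached 2 samples at P5, such as the 410 with 2 P5 samples and 1 P3 sample. In the regions of P3 alone the RUNX share was 26.9%. Of the transient regions with a peak in P3 replicates 1 to 3, 32.9%, 33.1% and 29.6% held a RUNX match, and of those in P5 replicates 1 to 3, 34.1%, 34.1% and 35.3%, against 23.3% to 23.8% of all regions with a peak in the same samples. TEAD matches were in 26.7% to 29.2% against 21.3% to 21.5%, and AP-1 matches in 11.8% to 18.3% against 29.8% to 32.02%. For EBF the P3 shares of 1.58%, 1.29% and 1.67% lay near the 1.28%, 1.305% and 1.28% of all regions. At P5 the EBF shares were 2.62% to 2.96% against 1.21% to 1.295%. With lists of equal length, where 499 of the regions were the same, RUNX matches were in 31.6%, TEAD in 28.3%, AP-1 in 19.1% and EBF in 1.78% of the transient regions, against 23.3%, 20.3%, 30.7% and 1.18% of all. TEAD matches were then in 31.4% of the regions that opened by P3 and stayed and in 29.8% of those that opened by P5 and stayed, both above the transient share.

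Weak peaks hold fewer AP-1 matches in any case, so the shares were also set side by side within ranges of the highest −log10 p of a region. Over all regions the AP-1 share climbed from 13.4% between 2 and 4 to 33.3% above 20, and in transient regions it was 7.82% to 16.9%, below the share of all regions in each of 5 ranges. RUNX matches stayed between 21.1% and 23.9% over all regions at every strength. In transient regions they were in 23.1% between 2 and 4 (243 regions), 30.1% between 4 and 6, 32.1% between 6 and 10, 40.4% between 10 and 20 (760 regions) and 49.2% above 20 (59 regions). TEAD matches went from 19.3% to 37.3% over the same ranges, against 14.7% to 21.3%. The strongest transient peaks thus had the highest RUNX and TEAD shares.

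**Figure D3:**
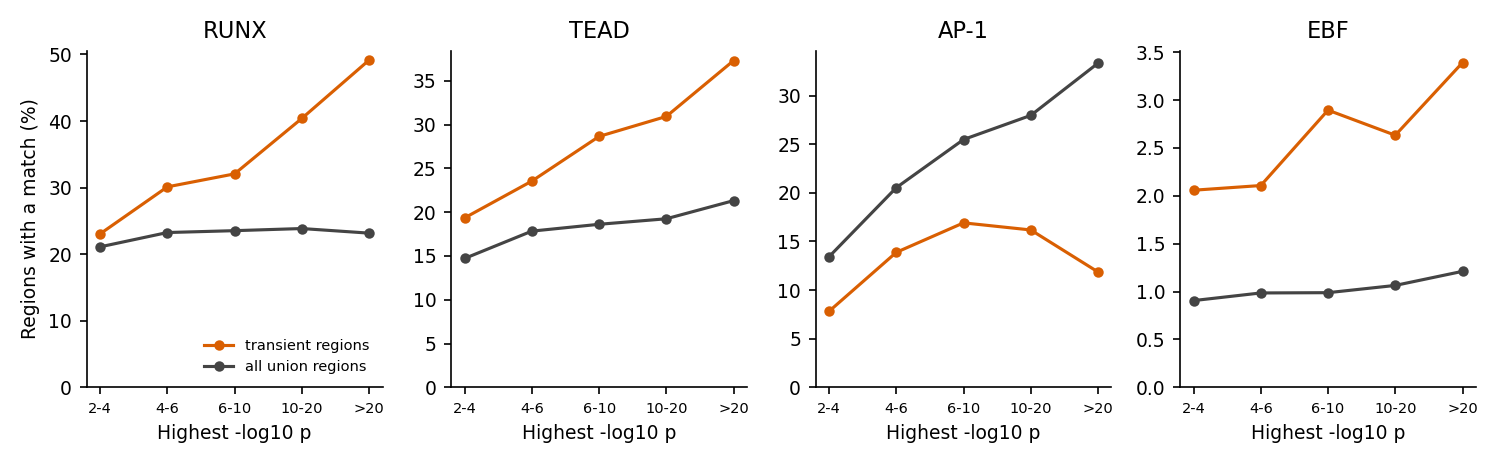
Share of regions with a match within 100 bases of the summit (y axes, %) by the highest −log10 p of the region in any sample (x axes), for transient regions (orange) and all union regions (grey). In transient regions the RUNX share goes from 23.1% to 49.2% and the TEAD share from 19.3% to 37.3%, and the AP-1 share is below that of all regions in each range; the last range holds 59 transient regions, 2 of them with an EBF match.

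Regions listed at one end of the series did not show the same shares. Those with peaks in 2 or more of 4 P1 samples and in none of the later ones (6962 regions) held a RUNX match in 21.0%, a TEAD match in 13.3%, an AP-1 match in 25.8% and an EBF match in 1.51%. Those with peaks in 2 or more of 3 P7 samples alone (8582 regions) had 19.96%, 20.1%, 31.3% and 0.326%. Their median −log10 p values of 6.17 and 7.195 were near that of the transient regions. The 20310 regions with a peak in 1 of 3 samples at most at P3 and P5 held RUNX in 24.8%, TEAD in 18.6% and AP-1 in 14.1%, so the low AP-1 share was found there too, and the RUNX and TEAD shares were lower than in the transient regions.

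Matches were concentrated at the summits. Per 50-base bin, a RUNX match was in 11.9% of transient regions within 50 bases of the summit and in 4.01% at 300 to 500 bases, a ratio of 2.96. Over all regions the values were 7.84% and 3.89%, a ratio of 2.02, so that the flanks were alike and the summits were not. TEAD matches had ratios of 3.603 in transient regions and 2.38 over all, EBF matches 7.47 and 3.18, and AP-1 matches 4.13 and 7.79. Read over the whole of each region in place of the summit, RUNX matches were in 43.3% of transient regions and 40.8% of all, and TEAD matches in 34.5% and 34.6%, where all regions are the wider ones.

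**Figure D4:**
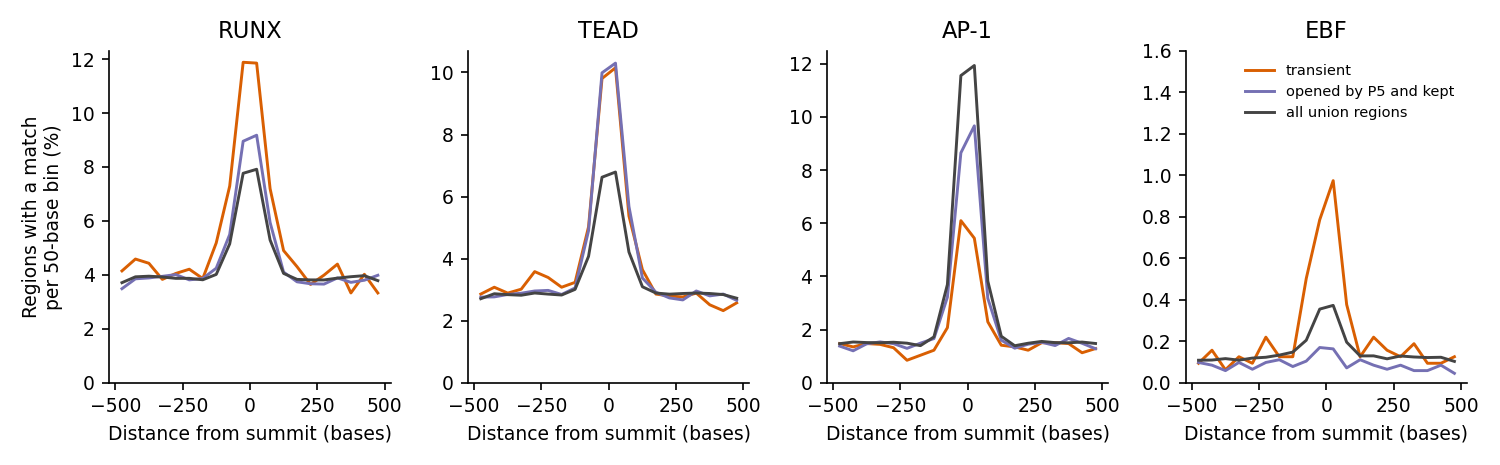
Share of regions with a match per 50-base bin (y axes, %) against distance from the summit in bases (x axes) for RUNX, TEAD, AP-1 and EBF, in transient regions (orange), regions opened by P5 and kept (purple) and all union regions (grey). At 300 to 500 bases the RUNX curves lie near 4.01% and 3.89%, and within 50 bases the transient regions reach 11.9% for RUNX and 5.77% for AP-1 against 7.84% and 11.7% of all regions.

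To read the RNA, each transient region was linked to the counted gene with the nearest start within 100 kb. This linked 2392 regions (75.2%) to 2109 genes, 1864 of them with 1 region. Of these genes, 1430 had enough reads to be tested (67.8%, against 53.8% of all counted genes). The 4 genes Foxo1, Osmr, 1700001K19Rik and Mir1893 had 4 regions each. Foxo1, a forkhead factor held back by insulin signalling, had CPM (counts scaled to library size) values of 29.8 ± 2.13, 31.95 ± 3.71, 28.6 ± 3.35 and 25.2 ± 6.49 at P1, P3, P5 and P7 (mean ± SD, n = 4 each here and below). Osmr, a subunit of the oncostatin M receptor, had 169 ± 21.5, 254 ± 26.8, 254 ± 62.7 and 238 ± 23.5. In neither did P3 or P5 pass the call rule used below against P1 or P7.

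With a 2-fold change asked for, genes near transient regions were called about as often as genes at large. Calls rest on edgeR's quasi-likelihood test with Benjamini-Hochberg adjustment over the 13442 genes tested, and needed a log2 fold change beyond 1 besides an adjusted p below 0.05. Of 382 genes near P3 regions, 13 were higher at P3 than at P1 (3.40%, against 2.40% of all genes) and 19 lower (4.97% against 6.58%), and 20 were higher than at P7 (5.24% against 7.41%) and 11 lower (2.88% against 4.44%). Of 1193 genes near P5 regions, 66 were higher at P5 than at P1 (5.53% against 4.83%) and 114 lower (9.56% against 10.1%), and 33 were higher than at P7 (2.77% against 2.28%) and 15 lower (1.26% against 1.19%). These shares are near the background, so they are no result about genes with transient regions. With no fold asked for, 42.7% of the genes near P3 regions were called between P3 and P1, against 33.4% of all genes, and 24.1% against 15.95% were higher at P3. In the same way 54.3% of those near P5 regions were called between P5 and P1, against 51.2% of all. The median log2 fold change of the linked genes was 0.03 at P3 against P1, 0.05 against P7, −0.02 at P5 against P1 and 0.03 against P7, and over all genes it was between −0.0018 and 0.0112.

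Few genes had RNA that was itself transient. P3 was higher than both P1 and P7 in 1 linked gene (0.262%, against 0.126% of all genes) and lower than both in 0 (background 0.439%; 0 also at an unadjusted p under 0.05 with the same fold, and 0 by DESeq2). P5 was higher than both in 4 linked genes (0.335% against 0.104%) and lower in 4 (0.335% against 0.245%). The 8 P5 genes became 4 without P1 replicate 1 or P5 replicate 2 and 5 without P5 replicate 1, P7 replicate 2 or P7 replicate 3, and the 1 P3 gene became 2 without P1 replicate 4 and 0 without P7 replicate 1. The passage with the highest mean CPM was P3 in 19.9% of the genes near P3 regions (20.1% of all genes) and P5 in 13.1% of those near P5 regions (13.5%).

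Tenm4, a teneurin that joins cells across the membrane, was the clearest of these genes. Its CPM values were 8.36, 6.46, 11.3 and 11.8 in P1 replicates 1 to 4, 26.2, 24.9, 21.5 and 21.4 at P3, 28.7, 35.6, 31.4 and 33.6 at P5 and 8.63, 11.6, 11.3 and 14.6 at P7. Every P5 library was above every library of the other passages. The log2 difference of P5 was 1.77 ± 0.17 (SE) from P1 (adjusted p = 5.54e-08) and 1.49 ± 0.17 from P7 (adjusted p = 5.38e-06). P3 also passed, by 1.31 and 1.03. Its transient region, with a TEAD match 39 bases from the summit, had −log10 p values of 7.42 and 5.16 in P5 replicates 1 and 3 and no peak in P5 replicate 2 or at P3, and lay 308 bases from a region with a P1 or P7 peak.

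Cntn2 was the gene higher at P3. It encodes contactin-2, an adhesion protein best known from axons. CPM values were 3.70, 4.83, 3.76 and 5.14 at P1, 16.5, 17.6, 20.8 and 20.3 at P3, 10.3, 7.40, 11.3 and 8.67 at P5 and 5.19, 10.3, 10.5 and 8.68 at P7. The P3 libraries were above all others, with log2 differences of 2.10 ± 0.20 from P1 (adjusted p = 1.39e-07) and 1.11 ± 0.19 from P7 (adjusted p = 6.60e-05). Without P7 replicate 1 the second was 0.93, under the fold asked for. The region in its intron, 4076 bases after the start, had −log10 p values of only 2.14 and 4.81, in P3 replicates 1 and 3.

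Lama1 and Sh2d4a were higher at P5. Lama1, the laminin α1 chain of basement membranes, had 0.548, 1.02, 1.16 and 0.495 CPM at P1, 6.38, 11.3, 8.12 and 4.17 at P3, 6.85, 11.8, 8.34 and 9.20 at P5 and 2.82, 4.63, 4.996 and 4.16 at P7. P3 and P5 overlapped, and P5 was above every P1 and P7 library. P5 differed from P1 by 3.48 ± 0.33 (log2, adjusted p = 5.29e-08) and from P7 by 1.12 ± 0.27 (adjusted p = 0.00692), the latter being 0.97 without P5 replicate 2 or without P7 replicate 1. Its intronic region, with an AP-1 match, had −log10 p values of 5.46 and 5.93 in P5 replicates 1 and 2. Sh2d4a, an SH2-domain adaptor, had 2.26, 4.55, 3.01 and 5.07 CPM at P1, 5.59, 5.42, 4.25 and 4.90 at P3, 8.59, 8.37, 7.75 and 6.49 at P5 and 3.21, 1.93, 2.69 and 2.60 at P7, so that P5 was above all other libraries. It differed from P1 by 1.06 ± 0.21 (adjusted p = 0.000333) and from P7 by 1.58 ± 0.22 (adjusted p = 5.97e-05); the former fell to 0.88 without P1 replicate 1 and to 0.97 without P1 replicate 3. Its 2 transient regions lay 72728 and 27557 bases upstream, and the first, with a RUNX and an AP-1 match, had 4.92 and 16.1 in P5 replicates 1 and 2.

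Prss35, a secreted protein of the serine protease family, was lower at P5 than at both ends. It had 9.45, 5.03, 17.5 and 14.0 CPM at P1, 0.131, 0.480, 0.838 and 0.732 at P3, 1.03, 0.692, 0.259 and 0.199 at P5 and 0.763, 2.08, 1.23 and 2.97 at P7. P5 and P7 overlapped. P5 was −4.38 ± 0.49 from P1 (log2, adjusted p = 4.34e-07) and −1.68 ± 0.57 from P7 (adjusted p = 0.0473), and the second call was lost in 12 of 20 alternative analyses. The other 4 genes were too low for the rule on named genes and are named after their values were seen: Adamts16, a matrix protease, was higher at P5 (0.779 CPM against 0.229 at P1 and 0.114 at P7), and Foxl1, a forkhead factor, Sbspon, a thrombospondin-type matrix protein, and Wnt2b, a Wnt ligand, were lower (0.479, 0.245 and 0.681 CPM at P5, against 0.794 to 2.26 at P1 and 0.859 to 1.75 at P7). Their adjusted p ran from 0.000423 to 0.0376, and all 4 lost a call in 1 or more alternative analyses.

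**Figure D5:**
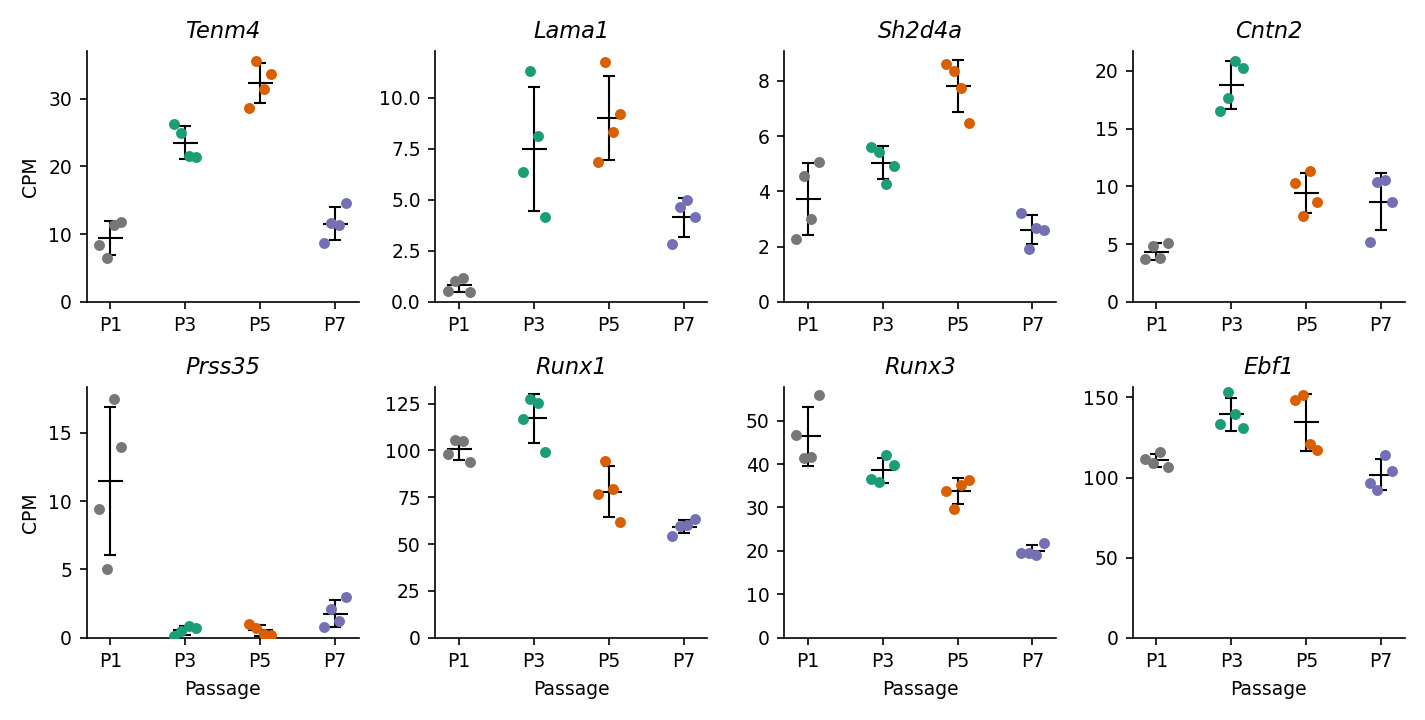
CPM (y axes) of 8 genes linked to transient regions in the 4 RNA libraries of each passage (points), with mean and SD (bars). Tenm4 and Sh2d4a are highest in each of the 4 P5 libraries and Cntn2 in each of the 4 P3 libraries, Prss35 is highest at P1, and Runx1, Runx3 and Ebf1 did not pass the fold threshold.

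Where the transient region lay at a promoter, the RNA took no single course. Of 78 genes with a region within 1000 bases of a transcript start, 44 were tested and 13 were called in a contrast of that passage. For P3 these were 5 of 27 genes tested (18.5%), against 17.7% of all genes called between P3 and P1 or P7. For P5 they were 8 of 19 (42.1%), against 16.2% of all genes called between P5 and P1 or P7. Col3a1, the collagen III chain, carried a P3 region 629 bases after its start and had 1811 ± 385 CPM at P1, 4257 ± 516 at P3 and 6297 ± 575 at P5, with 7249 ± 858 in the P7 samples (P3 against P1 1.23 ± 0.14, adjusted p = 1.05e-06). Its region had −log10 p values of 2.70 and 2.92 in P3 replicates 1 and 2. Fmod, the collagen-binding proteoglycan fibromodulin, had a P5 region 123 bases after its start and went from 26.4 ± 5.79 at P1 to 94.0 ± 14.6 at P5 (1.83 ± 0.16, adjusted p = 1.58e-08). Casq2, a calcium store of muscle, had a P5 region 473 bases upstream and fell from 10.4 ± 1.402 CPM at P1 to 0.231 ± 0.0828 at P5. Casq2 was at 1.16 ± 0.273 at P3 and stayed low at P7, at 0.248 ± 0.0763 (P5 against P7 −0.09 ± 0.45, adjusted p = 0.933). Kcnab1, a potassium channel subunit, had a P5 region 378 bases after an internal transcript start, far inside the gene and within A330015K06Rik as well. Its CPM, counted over the whole gene, was 23.0 ± 4.34 at P5, near the 24.3 ± 3.35 of P1. At P7 it was 9.58 ± 1.67 (P5 against P7 1.26 ± 0.15, adjusted p = 1.17e-05). Regions of P5 thus stood at the starts of genes that were higher and of genes that were lower at P5 than at P1.

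Genes of the factors whose motifs were searched also had transient regions. Of the 4 RUNX genes 3 did, with 5 regions: Runx3 had 3, and Runx1 and Cbfb 1 each. The Runx1 region held a RUNX and an AP-1 match and had −log10 p values of 5.74, 5.67 and 6.01 in the 3 P5 samples. Runx1 RNA was at 101 ± 5.54, 117 ± 13.1, 78.0 ± 13.5 and 59.3 ± 3.59 CPM over the 4 passages, so it was lower at P5 than at P1 (−0.37 ± 0.11, adjusted p = 0.00777). Runx3 had 46.4 ± 6.79, 38.6 ± 2.91, 33.7 ± 2.95 and 20.02 ± 1.26 CPM, and Cbfb 121 ± 1.92, 123 ± 6.74, 95.1 ± 8.20 and 77.4 ± 4.71. None of the 4 RUNX genes was called in any of the 4 contrasts by edgeR or by DESeq2. Per contrast and direction 1.19% to 10.1% of all genes were called, so a list of 4 without a call is near that share. At an unadjusted p under 0.05 in edgeR, with no fold asked for, 1 differed between P3 and P1 and 4 between P3 and P7. By the same measure 4 differed between P5 and P1 and 3 between P5 and P7. With an adjusted p under 0.05 and no fold, the shares of all genes were 33.4%, 51.3%, 51.2% and 16.8% in this order. That threshold is stricter, so the unadjusted counts have no share of all genes at their own threshold to be set against. The P5 mean lay under the P3 mean in each of the 4. Runx1, Runx2 and Cbfb had their highest means at P3 (117, 55.2 and 123 CPM), and Runx3 at P1. Whether RUNX levels bear on the transient regions was not tested.

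Of the 4 EBF genes, Ebf1 had 1 region. Ebf1 was at 111 ± 4.01, 139 ± 10.1, 134 ± 17.6 and 102 ± 9.65 CPM. Every P3 and P5 library was above every P1 and P7 library in this gene. The log2 differences were small: 0.33 ± 0.09 and 0.28 ± 0.09 for P3 and P5 from P1 (adjusted p = 0.0106 and 0.0181) and 0.45 ± 0.09 and 0.40 ± 0.09 from P7 (adjusted p = 0.000545 and 0.00579), all below the fold threshold. Its own region, in an intron 78516 bases after the linked start, held no EBF match. The other EBF genes took other courses: Ebf2 and Ebf3 had their highest means at P1 (7.07 ± 1.46 and 3.27 ± 0.860 CPM) and Ebf4 at P7 (5.12 ± 0.900 CPM). At P3 against P7, Ebf3 was called higher and Ebf4 lower.

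Of 12 genes of TEAD factors and the Hippo pathway, 5 had 6 regions, all reaching 2 samples at P5: Vgll3 had 2, and Ccn1, Lats2, Vgll4 and Wwtr1 1 each. Both Vgll3 regions held a RUNX and a TEAD match; the printed one had −log10 p values of 13.2 and 8.14 in P5 replicates 1 and 2. Vgll3, a TEAD cofactor, was at 295 ± 17.5, 322 ± 23.3, 279 ± 28.3 and 305 ± 25.3 CPM, with no contrast past the test. Tead2 had 28.3 ± 3.85, 38.8 ± 1.82, 44.2 ± 2.87 and 31.7 ± 2.82 CPM, higher at P5 than at P1 by 0.64 ± 0.10 (adjusted p = 2.05e-05) and than at P7 by 0.48 ± 0.10 (adjusted p = 0.00214), below the fold threshold. Tead4 was lower at P5 than at P1 by 1.14 on the log2 scale, with means of 3.07 and 6.76 CPM. Tead1, the most abundant TEAD factor, had 348 ± 30.5, 473 ± 55.1, 397 ± 55.2 and 378 ± 65.6 CPM. At P5 Tead1 differed from P1 by 0.19 ± 0.12 (adjusted p = 0.212) and from P7 by 0.07 ± 0.12 (adjusted p = 0.750). At P3 it was higher than at P1 by 0.44 (adjusted p = 0.0103) and than at P7 by 0.32 (adjusted p = 0.0365). Tead3 means were 45.9, 45.9, 50.3 and 53.7 CPM, with no contrast past the test. At P5 against P1, 1 of the 12 genes was called higher and 1 lower, against 4.83% and 10.1% of all genes. Against P7 0 were called by edgeR or DESeq2 (8 at an unadjusted p under 0.05 in edgeR). Of all genes, 2.28% were called higher and 1.19% lower there, so these small counts are no result about the list. The unadjusted count has no share of all genes to be set against.

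Of 10 AP-1 genes, 3 had 1 region each: Jun, Fosl2 and Batf3. The Jun region, 49376 bases upstream, held an AP-1 match. Jun was at 114 ± 6.35, 115 ± 4.798, 98.1 ± 10.1 and 110 ± 11.8 CPM. Of the 9 AP-1 genes tested 0 were called against P7 at P3 or P5 by edgeR or DESeq2 (5 and 2 at an unadjusted p under 0.05 in edgeR). Of all genes, 7.41% were called higher and 4.44% lower at P3 than at P7, and 2.28% and 1.19% at P5. For a list of 9 genes, 0 calls are thus no result. The unadjusted counts have no share of all genes to be set against. Against P1, 1 of the 9 was called in edgeR at both P3 and P5, where 6.58% and 10.1% of all genes were called lower. This was Batf, with no transient region, lower by log2 differences of −1.24 and −2.40, from a mean of 1.17 CPM at P1. Of the 6 CTCF and cohesin genes, Rad21 and Stag1, both cohesin subunits, had 2 regions each. Rad21 went from 222 ± 3.03 CPM at P1 and 217 ± 18.6 at P3 to 137 ± 21.1 at P5 and 88.5 ± 8.80 at P7, and was higher at P3 than at P7 by 1.29 ± 0.10 (adjusted p = 6.58e-09).

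Among the other lists, 12 of 32 extracellular matrix genes had 14 regions, with 2 each at Col3a1 and Col5a1, and 7 of 18 Wnt genes had 9, with 2 each at Dkk2 and Lef1. Dkk2, a secreted Wnt modulator, was at 93.3 ± 22.4 CPM at P1 and 242 ± 27.7 at P5 (1.38 ± 0.14, adjusted p = 1.58e-07), and stayed at 214 ± 29.5 at P7. Lef1, a Wnt target and effector, was lower at P5 than at P1 by 1.10 ± 0.26 on the log2 scale, with means of 2.26 and 4.85 CPM. Of 22 axon guidance genes 6 had 9 regions, 3 of them at Ephb2, and of 14 cadherins and adhesion genes 5 had 8. By contrast, 2 of 22 genes of S phase and mitosis had 1 region each (Ccna2 and Mki67), and 0 of 14 p53 and cyclin-dependent kinase inhibitor genes and 0 of 4 C/EBP genes had one. Of all counted genes with a start site, 8.505% had a transient region. Long genes far from their neighbours offer more room for a linked region, and this was not adjusted for, so the shares say nothing particular of these lists.

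In RNA, the lists were counted whole, whether or not a member had a transient region. At P5 against P1, 9 of the 32 matrix genes were called higher (all genes 4.83%) and 6 lower (all genes 10.1%), and of the 22 S phase and mitosis genes 20 were called lower. At P5 against P7, 14 of these 22 were called higher (all genes 2.28%). Cdkn1a, the p21 cell cycle inhibitor, was at 235, 342, 544 and 680 CPM and Cdkn2a, which encodes p16 and p19Arf, at 8.06, 21.4, 101 and 224 CPM, so both were highest at P7, and neither had a transient region.

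Markers of other cell types moved with passage in the RNA libraries. Summed CPM of 8 fibroblast markers was 21240 to 23190 at P1 and 31730 to 40220 at P5. All 6 macrophage markers were measured, with sums of 279 to 427 at P1, 39.2 to 55.8 at P3, 19.1 to 27.5 at P5 and 33.6 to 48.7 at P7. Sums of 4 keratinocyte markers were 41.3 to 293 at P1 and 1.37 to 3.36 later, those of 4 endothelial markers 126 to 132 at P1 and 10.3 to 13.3 at P5, and those of 2 adipocyte markers 92.9 to 122 at P1 and 2.12 to 5.49 at P5. Sums of 5 skeletal muscle markers were 117 to 180 at P1, 51.8 to 57.8 at P3, 29.3 to 56.2 at P5 and 38.6 to 109 at P7. Of these 5 genes, 4 were called higher at P3 than at P7 (all genes 7.41%), so the sums hide courses that differ between genes. Casq2 and Pdgfb, with promoter regions of P5, had their highest means at P1 as these lists did (10.4 ± 1.402 and 6.90 ± 1.58 CPM). In such bulk samples fewer cells of a type and less RNA per cell cannot be told apart, and the part of the cell mixture in the transient regions was not tested. Sums of 4 Schwann cell and melanocyte markers were 64.6 to 74.5 at P1, 75.8 to 90.2 at P3, 55.6 to 95.1 at P5 and 57.9 to 134 at P7. In none of these 7 lists were all P3 libraries, or all P5 libraries, above every P1 and P7 library.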

How the data were processed

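ATAC-seq and RNA-seq of the 4 passages were used. The authors aligned ATAC reads to mm10 with Bowtie2 2.3.5.1 in the ENCODE pipeline, removed duplicates and called peaks with MACS2 in each sample, without pooling. The deposited lists give fold over background (a ratio) and −log10 p for each peak, several summits of 1 peak being listed on lines of their own. The RNA files hold raw counts per gene, which the authors made with Trimmomatic 0.39, HISAT2 2.2.1 and HTSeq 0.12.4 without strand, so reads of overlapping genes on opposite strands cannot be told apart.

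Union regions and motif matches were computed in Python 3.11.15 (pandas 2.3.3, pysam 0.24.0) with RefSeq GRCm38.p6. The summit of a region was that of its highest peak, and 100 bases were read on each side. Of 24984 counted gene symbols, 24798 had a start site. RNA was fitted in 1 model over 16 libraries with edgeR 4.0.16 (R 4.3.3), TMM scaling and filterByExpr, with DESeq2 1.42.0 as an alternative. The largest and smallest totals differed little, and replicates differed by more than counting noise. The code was tested on simulated data.

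The members and lists were chosen with earlier results of these data known. Comparisons by peak strength, by distance from the summit and with list lengths made equal for the left-out samples were added after the shares were seen. Named regions were the 4 of each class off chromosome 18 with a peak in all samples of their passages and the highest mean percentile of −log10 p (3 of the 12 are not reported here). Exons and introns were those of any curated RefSeq transcript, which need not be the linked gene's. Named genes were linked genes higher or lower than both P1 and P7 with an average log2 CPM of at least 1, the genes with most regions, promoter genes with a call, and members of the lists.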

Additional observations from a re-analysis of the deposited data

Results flagged for a closer look

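In 53 genes named or looked at for the report, a single RNA library stood apart from the other 3 of its passage, by the ratio of its gap to the range, in 13 of 212 groups (6.13%). Chance flags about 1 in 20 such groups. All values are CPM. In P1 replicate 2, Kcnab1 was at 29.3 (other P1 libraries 22.2 to 23.2), Fosl1 at 8.77 (6.37 to 6.56) and Ebf3 at 4.55 (2.73 to 2.91), and Yap1 was low at 165 (182 to 185), as was Plxna4 at 14.8 (16.6 to 16.9). In P7 replicate 4, Ostn was at 1.34 (0.386 to 0.534) and Runx3 at 21.9 (19.1 to 19.6), and Fmod was low at 58.9 (81.1 to 84.5). Osmr was at 273 in P7 replicate 3 (223 to 231), and Tead1 was low at 279 in P7 replicate 1 (406 to 417). Pdgfb was at 2.71 in P5 replicate 4 (0.415 to 0.582) and Creb3l3 at 2.13 in P3 replicate 2 (1.48 to 1.58). Ostn was at 0.0684 in P1 replicate 3 and at 0 in the other 3 P1 libraries.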

How the results depend on the processing

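The number of transient regions depended on the rule. It was 509 with 3 of 3 samples asked for, and 1358 to 4619 when 1 ATAC sample was left out. It stayed within 1.5 times of 3182 with peaks of −log10 q of at least 2 (2887, 2332 of them shared), with no P1 or P7 peak within 500 bases (2419), with peaks covering at least 50% of the region (4119) and with merging within a passage (3263). With equal list lengths, the left-out samples repeated the rule in 89.5% at P1, 81.9% at P7, 45.1% at P3 and 47.6% at P5, promoters were 4.04%, AP-1 matches 19.1% and EBF matches 1.78%. Promoters were 1.603% at 500 bases. Over whole regions the matches were 43.3% (RUNX), 34.5% (TEAD), 19.01% (AP-1) and 3.24% (EBF).

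Counts of called genes near P3 regions were 32 against P1, 31 against P7 and 1 against both, and near P5 regions 180, 48 and 8. With no fold change asked for they were 163 (42.7%, against 33.4% of all genes), 202 (52.9% against 51.3%), 27 (7.07% against 5.78%), 648 (54.3% against 51.2%), 223 (18.7% against 16.8%) and 30 (2.51% against 1.87%). With links within 10 kb they were 12 and 13 at P3 and 57, 14 and 2 at P5. With at least 10 counts in every library P3 against P1 gave 15, P5 against P1 112 and P5 against both 2, and without a filter on low counts P3 against both gave 3. With regions from equal list lengths, 1514 genes near P3 regions were tested and gave 156 (10.3%, against 8.98% of all), 160 (10.6% against 11.9%) and 9 (0.594% against 0.565%). Leaving out 1 library gave 29 to 34, 27 to 39 and 0 to 2 at P3, and 177 to 191, 42 to 57 and 4 to 8 at P5. No direction reversed. The libraries were not treated as paired, as the labels give no pairing. Deviations of same-numbered libraries correlated from −0.262 to 0.276, with 11 of 24 pairs over 0.1. These 11 include all 6 pairs of replicate 4. With 4 libraries to choose from in each passage, 23 of 48 comparisons were best with the same number, so same-numbered libraries may be related. With the replicate block the counts were 31, 34 and 1 at P3 and 182, 49 and 7 at P5. Peak lists without read counts allow no test of a region's accessibility between passages, and weak peaks near the caller's threshold limit what absence from a list can say.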
